A study of Mus musculus with 21 samples.

Results

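Mouse CD8 T cells grown for 10 days with IL-2v at 50 IU/mL were compared with cells grown for the same time with IL-15 at 50 IU/mL. The comparison took every cell of the 1 library made from each culture, 5090 cells with IL-2v and 6548 with IL-15, or 11638 of the 106458 cells in the 21 libraries of the series. The cells of both groups were OT1 T cells, whose transgenic receptor recognises an ovalbumin peptide. They were naive at the start, were activated on day 0 with beads that carried antibodies to CD3 and CD28, and differed in the cytokine of the medium. IL-2v is an IL-2 variant that the labels call a mutant. The treatment label of the IL-15 library names interleukin-16, and its title and the design text, which name IL-15, were followed. The labels describe a sort of CD44+ CD45.1+ CD8+ cells from tumours beside the culture protocol, and give no strain, sex or age.

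Each condition had 1 library, so no difference below has a replicate check and no p-value was computed. Cells of a library share their culture and are not replicates. Intervals are exact 95% intervals that cover counting error only.

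IL-2 and IL-15 are related cytokines that use the same signalling chains, the beta chain encoded by Il2rb and the common gamma chain encoded by Il2rg. Each has an alpha chain of its own, Il2ra (CD25) for IL-2 and Il15ra for IL-15. Their receptors act through the kinases JAK1 and JAK3 and the transcription factor STAT5. In CD8 T cells, IL-2 is known for promoting cytotoxic effector cells and IL-15 for keeping memory cells alive.

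The libraries held 27293158 UMIs with IL-2v and 31864193 with IL-15, where a UMI (unique molecular identifier) marks 1 captured RNA molecule. The median cell had 4926 UMIs and 1657 genes with IL-2v, and 4383 UMIs and 1456 genes with IL-15. The median share of mitochondrial UMIs was 4.96% and 3.50%, and ribosomal protein genes took 35.7% and 42.8% of all UMIs. The T cell genes Cd3d and Trbc2 were found throughout, and Cd3d had a UMI in 98.3% and 97.7% of cells. Of the markers of other cells, Foxp3, Ms4a1, Igkc, Lyz2, Csf1r, Adgre1 and Ncr1 were at 0 in both libraries. The summed level of 5 B cell markers was 1.54 CPM (counts per 1000000 UMIs) and 9.51 CPM, and that of 6 myeloid markers was 6.6 and 1.54 CPM, of which Cd68 was the most widespread, with a UMI in 2.85% and 0.580% of cells. The gamma delta T cell gene Trdc had a UMI in 28.5% and 37.3% of cells. The part of such markers in the differences below was not tested. A total of 8 barcode sequences occurred in both libraries.

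UMIs were summed over the cells of a library and scaled to CPM. Genes with at least 20 CPM in either library were compared as the difference of log2(CPM + 1), IL-2v minus IL-15, a scale that understates the difference of low genes. Of 5526 genes compared, 499 stood 2-fold or more above IL-15 in the IL-2v library (9.03%) and 287 stood 2-fold or more below (5.19%), together 786 or 14.2%. At 4-fold, 173 were higher and 51 lower, and at 8-fold 82 were higher and 19 lower. The larger differences thus lay mostly on the side of IL-2v. The split depends on the scaling. With ribosomal protein and mitochondrial genes left out of the totals, 7306 genes reached 20 CPM, of which 527 were higher and 574 lower, and the share of higher among called genes moved from 63.5% to 47.9%. The median over all genes moved from 0.03 to −0.13. Over the same 5526 genes, a count added after seeing the data, those totals gave 404 higher and 426 lower, a share of 48.7%. Of the 499 higher genes, 322 reached 20 CPM in the IL-2v library alone, and of the 287 lower genes 146 did so in the IL-15 library alone; such genes entered through the library where they are high. The gene differences below that stand near 2-fold are within reach of that shift of scale.

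**Figure D1:**
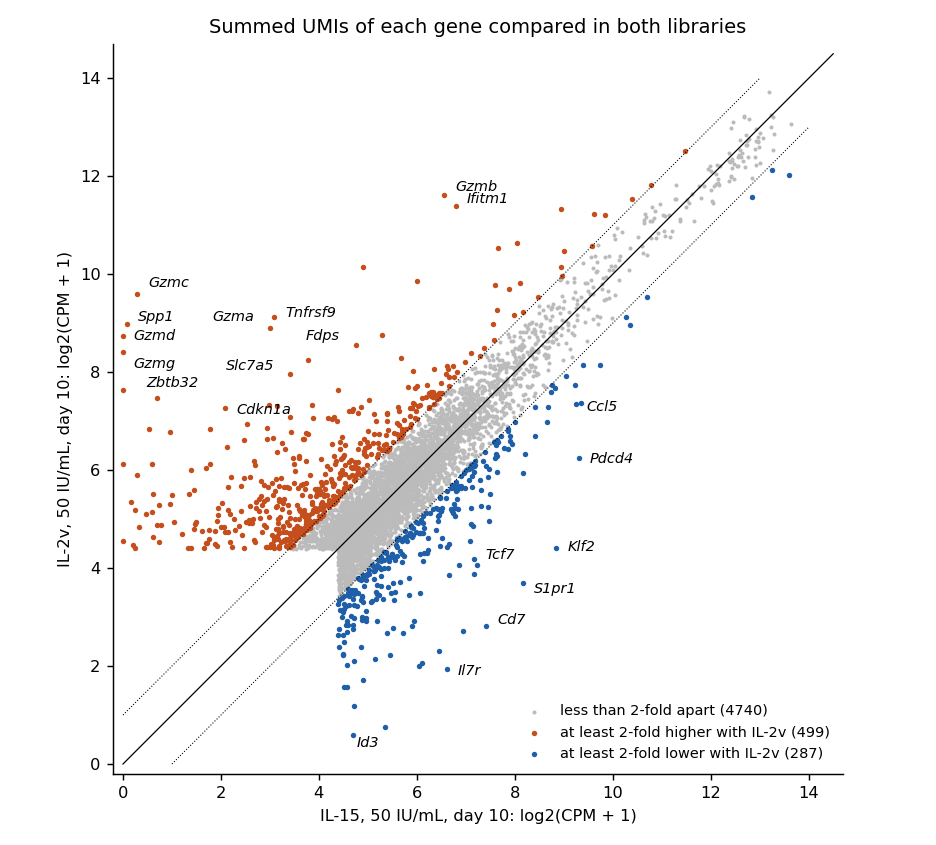
Level of each of the 5526 genes compared, as log2(CPM + 1), with IL-15 on the x axis and IL-2v on the y axis (day 10, 50 IU/mL, 1 library each). Points above the upper dotted line (499) were at least 2-fold higher with IL-2v and points below the lower one (287) at least 2-fold lower; granzymes c, d and g and Spp1 lie at the left edge, where the IL-15 level is at or near 0.

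The gene lists below and their members were chosen with earlier results of these data known. Their counts beside the share of all genes are a description and no test of enrichment. Cytotoxic granule genes were among those furthest apart. Of 16 compared, 11 stood 2-fold or more above IL-15, where 9.03% of all genes did, and 0 below; 7 of the 11 reached 20 CPM with IL-2v alone. The median log2 difference was 2.61 against 0.03 over all genes. Granzymes are serine proteases that killer cells release into a target. Gzmb, the main death-inducing granzyme, reached 3143 CPM (3122 to 3164) in the IL-2v library against 93.1 CPM (89.7 to 96.5) in the other, a ratio of 33.8. Gzma was at 475 and 7.00 CPM, a ratio of 67.9. Gzmb thus had a clear level in both libraries, while Gzma was low with IL-15.

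The granzymes known to appear late in activated T cells, Gzmc to Gzmg, were nearly confined to the IL-2v library of this pair. Gzmc was at 773 CPM with IL-2v and at 0.220 CPM with IL-15, where it had 7 UMIs in all. Gzmd was at 424 CPM, Gzmg at 338, Gzme at 199 and Gzmf at 68.5 CPM with IL-2v, and none of these 4 had a UMI among the 31864193 of the IL-15 library. Set against the 3 UMIs per library that a count of 0 allows, they were at least 4508-fold, 3593-fold, 2110-fold and 727-fold higher. These genes form a cluster with Gzmb on the minus strand of chromosome 14 in the GRCm38 build, from Gzme (56117626 to 56120625) past Gzmd (56129556 to 56132608), Gzmg (56156582 to 56159579), Gzmf (56205263 to 56211417) and Gzmc (56231441 to 56234656) to Gzmb (56258838 to 56262260). They are close relatives in sequence. By the annotation, 6.74% of the 60-base words at the 3′ end of Gzmd also occur in another gene, and 12.3% of those of Gzmg.

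The rest of the granule list differed less. Prf1, the pore-forming perforin that lets granzymes in, was at 76.5 CPM with IL-2v and 21.4 with IL-15, a log2 difference of 1.79. Serpinb9 and Serpinb6b, protease inhibitors that protect the killer cell, differed by 3.03 and 2.20. Nkg7, a granule membrane protein, stood at the 2-fold line with 1529 and 763 CPM (log2 1.0), and was below it under other scalings. Srgn (0.61), Lamp1 (0.28), Ctsw (−0.21) and Ctsc (−0.88) were less than 2-fold apart, as was the death ligand gene Fasl (0.96).

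Among the 15 genes furthest above IL-15, Spp1, which encodes the secreted protein osteopontin, was at 501 CPM with IL-2v and had 2 UMIs with IL-15. The ratio of the sums was 7990, with a counting interval from 2211 to 65980. Osteopontin is also made by myeloid cells. The 6 myeloid markers summed to 6.6 CPM with IL-2v and 1.54 with IL-15. Lyz2, Csf1r and Adgre1 were at 0 in both libraries, while Cd68 (5.61 and 1.22 CPM), Fcgr3 (0.733 and 0.314 CPM) and Cd14 (0.256 and 0 CPM) had higher values with IL-2v, and their part in the difference was not tested. Tnfrsf9, which encodes the costimulatory receptor 4-1BB, was at 556 CPM (547 to 565) and 7.53 CPM (6.61 to 8.55), a ratio of 73.8. It was the 1 gene of 6 costimulatory receptors and ligands compared that was at least 2-fold higher, and it reached 20 CPM with IL-2v alone. Cd27 was the 1 lower (74.5 and 194 CPM, log2 −1.37). Of all genes, 9.03% were higher and 5.19% lower. Zbtb32, a transcriptional repressor of lymphocytes, was at 177 and 0.628 CPM. The metalloprotease gene Adam8 (109 and 0.942 CPM), the lipid desaturase gene Scd1 (58.8 and 0.220 CPM), the receptor gene Gpr141 (68.7 and 0.502 CPM), the nuclear lamina gene Lmna (39.8 and 0.126 CPM) and the unnamed transcript Gm36723 (113 and 0.439 CPM) completed this set with the granzymes and Ifitm2. Apart from Tnfrsf9, Gzma and Ifitm2, each of the 15 was below 1 CPM with IL-15.

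Promoters of the compared genes were searched for TTCNNNGAA, the STAT5 consensus, on both strands of the 250 bases before each RefSeq start (GRCm38.p6). A motif of this length occurs often. It lay in 7.84% of the windows of the genes at least 2-fold higher, 7.62% of those at least 2-fold lower, 5.89% of those of all genes compared and 7.02% of all windows in the table. Of the 15 highest and 15 lowest genes, 26 matched the table, and 3 held the motif: Tnfrsf9, Il7r and Nsg2. The Tnfrsf9 stretch is shown because the gene differed most in the costimulatory list; the capitals mark the motif, which starts 136 bases before a RefSeq start, on the plus strand at chr4:150927833-150927901, inside the gene and outside its annotated exons.
Tnfrsf9: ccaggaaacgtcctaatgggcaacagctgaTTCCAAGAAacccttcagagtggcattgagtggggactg
A match describes the letters of the window and is no evidence of binding.

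Of 10 transcription factors of effector cells compared, 8 stood 2-fold or more above IL-15, where 9.03% of all genes did, and 0 below, with a median of 2.09. Of the 8, 4 reached 20 CPM with IL-2v alone. The 8 were Zbtb32, Irf8 (159 and 6.90 CPM, log2 4.34), Nfil3 (109 and 9.85 CPM, 3.35), Bhlhe40 (142 and 26.7 CPM, 2.36), Irf4 (2.36), Id2 (831 and 235 CPM, 1.82), Eomes (156 and 48.3 CPM, 1.67) and Hif1a (1.38). Id2, Irf4 and Eomes are known regulators of effector and memory differentiation, and Hif1a of the response to low oxygen. Batf (0.25) and Runx3 (−0.57) were less than 2-fold apart. Tbx21, the effector regulator T-bet, and Prdm1 (Blimp-1) stayed under 20 CPM in both libraries and were not compared. Tbx21 was at 14.4 CPM in the IL-2v library against 19.0 CPM with IL-15. Prdm1 was at 16.6 against 3.04 CPM. Also under 20 CPM in both, Rora (4.14 and 19.4 CPM) and Ikzf2 (5.13 and 17.8 CPM) had lower values with IL-2v. Zeb2 (0.843 and 0.157 CPM) and Batf3 (1.03 and 0 CPM) had higher values.

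Of 6 genes compared from the inhibitory receptor list, not all of which encode such receptors, 4 stood 2-fold or more above IL-15. This was against 9.03% of all genes, and the median was 2.42. Cd244a (2B4) was at 29.6 and 1.07 CPM, Lag3 at 20.2 and 1.51, Lrrc32, which binds latent TGF-beta, at 68.8 and 10.2, and Entpd1 (CD39) at 40.3 and 8.03 CPM. Ctla4 (0.43) and Cd160 (0.23) were within 2-fold. Pdcd1, which encodes PD-1, was below 1 CPM in both libraries, at 0.550 CPM or less. Btla, also under 20 CPM in both, went the other way with 1.17 and 10.6 CPM. The 4 higher genes reached 20 CPM in the IL-2v library alone, so they entered the comparison through the library where they are high. Of 3 killer lectin receptor genes compared, 2 were higher, against 9.03% of all genes, and both reached 20 CPM with IL-2v alone. Klrk1 (NKG2D) was at 91.5 and 18.2 CPM and Klrb1c at 36.7 and 2.86 CPM, and Klrd1 (log2 0.37) was within 2-fold. Klrb1c is also a marker of natural killer cells. The 5 markers of natural killer and gamma delta T cells, Klrb1c among them, summed to 169 CPM with IL-2v and 193 with IL-15. Ncr1 was at 0 in both libraries, Tcrg-C1 was at 14.5 and 7.47 CPM and Trdc at 117 and 181 CPM, and their part in the difference was not tested.

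All 3 IFITM genes compared were far apart, each 2-fold or more above IL-15, against 9.03% of all genes. Of these, Ifitm3 reached 20 CPM with IL-2v alone. Ifitm1 was at 2669 CPM with IL-2v and 110 with IL-15, Ifitm3 at 301 and 12.7, and Ifitm2 at 1131 and 28.8 CPM. These genes encode membrane proteins that block virus entry, and Ifitm2 is uncertain because 20.2% of its 3′ end words have a copy in another gene. Of 18 interferon-stimulated genes compared, 10 stood 2-fold or more above IL-15 (9.03% of all genes) and 1 below (5.19% of all genes), with a median of 1.21. Of the 10, 7 reached 20 CPM with IL-2v alone. Isg15 was at 157 and 7.81 CPM (log2 4.16), Ifit1 at 26.0 and 2.04 (3.15), and Ifi27l2a at 880 and 192 CPM (2.19). The genes of this list known to answer interferon gamma behaved less uniformly, with Iigp1 higher (1.44), Ifi47 lower (−1.08), and Irf1 (−0.41), Gbp2 (−0.06) and Igtp (0.43) within 2-fold.

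In the opposite direction stood the homing and survival list, not all members of which encode receptors. All 10 genes compared were at least 2-fold lower with IL-2v, where 5.19% of all genes were, and their median was −2.98. The list was chosen with earlier results of these data known, and Il7r, Cd7, S1pr1, Il6ra and Ccr7 are also among the 15 lowest genes. Of the 10, 7 reached 20 CPM with IL-15 alone. Il7r, the receptor for the survival cytokine IL-7, stood at 2.82 CPM (2.23 to 3.53) under IL-2v, 34.2-fold below its 96.6 CPM (93.2 to 100.1) under IL-15. S1pr1, which lets T cells leave lymphoid organs, was at 12 and 288 CPM. Cd7 was at 6.08 and 170 CPM, and Ccr7, the chemokine receptor for lymph node entry, at 15.7 and 150 CPM. Further members were Il6ra (0.513 and 24.9 CPM), Dapl1 (15.8 and 115), Slamf6 (5.72 and 25), Cxcr3 (23.3 and 74.4) and Ltb (242 and 527 CPM). Of 8 integrin and memory surface genes, Itga4 was the 1 lower, at 3.44 and 34.2 CPM, and reached 20 CPM with IL-15 alone. The higher ones were 4, against 9.03% of all genes: Ly6a (1.62), Itgal (1.44), and Cd44 and Ly6c2 (1.01 each), the last pair below 2-fold with TMM scaling (a trimmed mean of ratios). Ly6c2 is uncertain, since 28.1% of its 3′ end words have a copy in Ly6c1.

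Transcription factors of naive and memory cells were lower in 7 of 11 compared, against 5.19% of all genes, with 0 higher and a median of −1.11. Of the 7, 3 reached 20 CPM with IL-15 alone. Klf2, which drives S1pr1, was at 20.3 CPM with IL-2v and 460 with IL-15, a 22.6-fold difference. Id3 was at 0.696 and 40.0 CPM, and Tcf7, which encodes the memory factor TCF-1, at 17.1 and 144 CPM (log2 −3.0). Klf3 differed by −3.02, Foxo1 by −1.22, Foxp1 by −1.11 and Lef1 by −1.08 on the log2 scale. Bach2 (−0.61), Zeb1 (−0.62), Satb1 (−0.23) and Ikzf1 (−0.23) were within 2-fold, all with lower values in the IL-2v library.

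The remaining genes of the 15 lowest lay outside these lists. Actn1, an actin cross-linker, was at 3.96 and 86.8 CPM, Drc1 at 3.15 and 67.9, Nsg2 at 3.0 and 64.7, Gm26740 at 5.53 and 122, and Sh3bp5 at 13.7 and 142 CPM. Fcgrt (1.28 and 25.5 CPM), St6gal1 (3.70 and 43.1) and Rflnb (2.27 and 28.9) were at lower levels. Of 12 genes of quiescence and the GIMAP family, 3 were lower, against 5.19% of all genes. The 3 were Pdcd4, a brake on translation (75.1 and 630 CPM), Btg1, a brake on proliferation (164 and 655 CPM), and Txnip (192 and 427 CPM). None of the 12 was higher, and the 7 Gimap genes were within 2-fold.

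**Figure D2:**
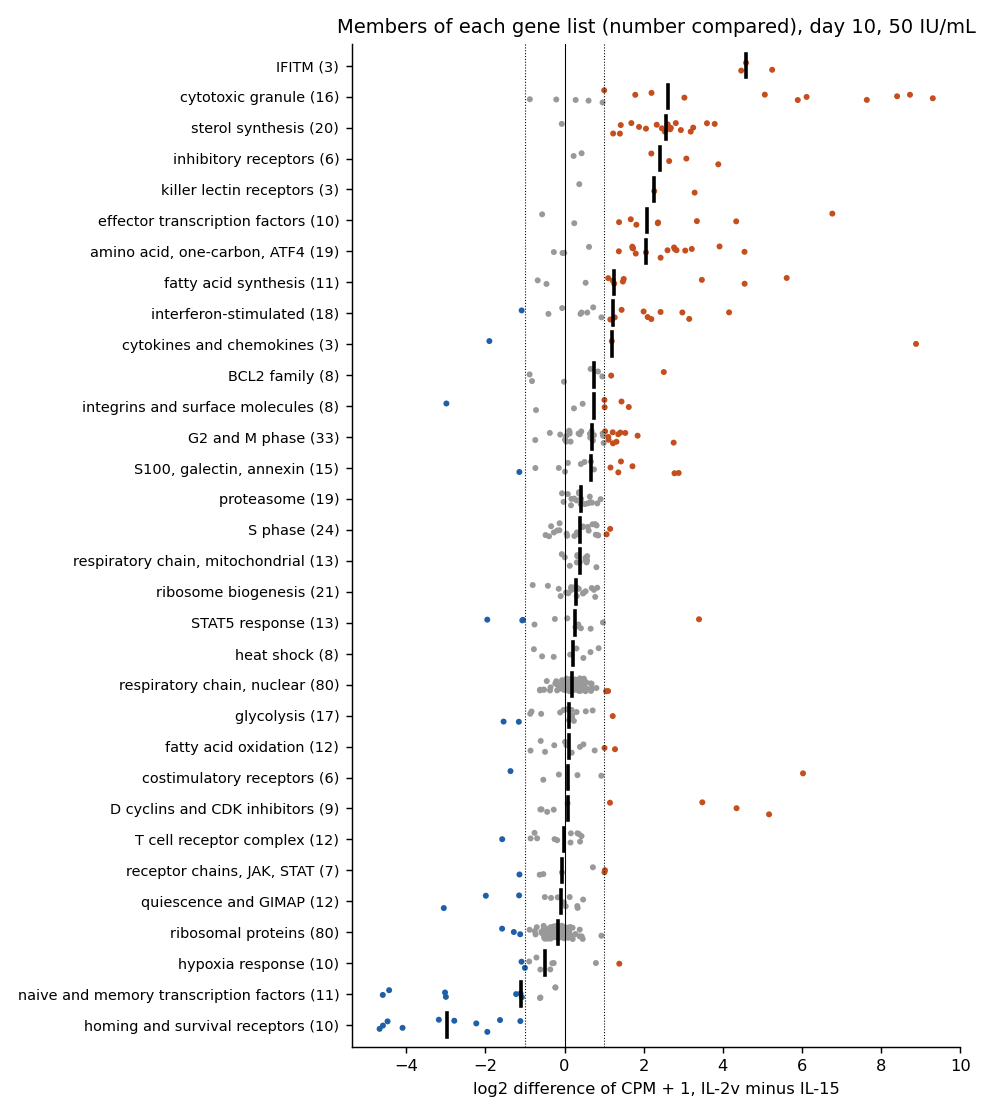
Log2 difference of each member of 32 gene lists, IL-2v minus IL-15 (day 10, 50 IU/mL); each point is a gene, the black bars are list medians and the dotted lines mark 2-fold. The IFITM (median 4.59), cytotoxic granule (2.61) and sterol synthesis (2.57) lists lie highest. The list labelled homing and survival receptors (−2.98) lies lowest with all 10 members beyond 2-fold.

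To see whether a difference of sums came with more cells that had the RNA or with more RNA per cell, each cell was thinned at random to 2000 UMIs. This kept 4948 IL-2v and 6438 IL-15 cells, and left out 142 and 110 shallower ones. Gzmb had a UMI in 93.9% of IL-2v cells (93.2 to 94.6%) and in 14.4% of IL-15 cells (13.6 to 15.3%), and without thinning in 97.7% and 27.7%. Cells with Gzmb held a mean of 6.08 UMIs with IL-2v and 1.23 with IL-15. The libraries hold no cell type that should lack these genes, so a background of RNA from other cells could not be measured in them. The share in the naive library of the series, 0.649%, is given for comparison only. That is a separate library, and its cells with Gzmb held a mean of 1.69 UMIs.

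Other genes were found in fewer of the IL-2v cells. Tnfrsf9 had a UMI in 57.3% of IL-2v cells and 1.27% of IL-15 cells, near the 1.01% of naive cells. Spp1 was found in 24.7% and 0.0155%, Gzmc in 21.3% and 0.0621%, and Gzma in 19.4% and 0.280%. Gzmd was found in 8.39% of IL-2v cells and in 0 of 6438 IL-15 cells. A count of 0 allows up to 3 cells, or 0.0466%, with a Gzmd UMI at 2000 UMIs per cell (exact interval up to 0.0573%), which limits cells with a UMI and not cells that express the gene. Naive cells had a Gzma UMI in 1.19%, so the Gzma share with IL-15 was below that of naive cells.

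Of the genes lower with IL-2v, some had a UMI in few of its cells. Klf2 had a UMI in 3.98% of IL-2v cells, 55.8% of IL-15 cells and 75.6% of naive cells. S1pr1 was found in 2.61%, 42.0% and 56.5%, Tcf7 in 3.40%, 24.2% and 58.2%, and Il7r in 0.566%, 16.1% and 46.3%. For these 4 genes the IL-15 culture stood between the IL-2v culture and naive cells. Cd7 did not follow this order, with 1.13%, 27.5% and 18.9%. Neither did Pdcd4, Ccl5, Socs1 and Myc, whose shares were also highest in the IL-15 culture. Cd3d, of the T cell receptor complex, had a UMI in 87.4% and 85.0% of cells of the cultures. Of the 12 genes of that complex and its kinases, 1 was 2-fold lower, against 5.19% of all genes. It was the coreceptor gene Cd8b1 (284 and 849 CPM, in 41.4% and 76.7% of cells), and Cd8a differed by −0.76. Other lower genes also kept a UMI in a larger share of IL-2v cells, such as Ltb (35.0% and 63.1%), Socs1 (19.4% and 35.6%), Lef1 (17.7% and 33.4%) and Pdcd4 (13.7% and 70.0%).

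**Figure D3:**
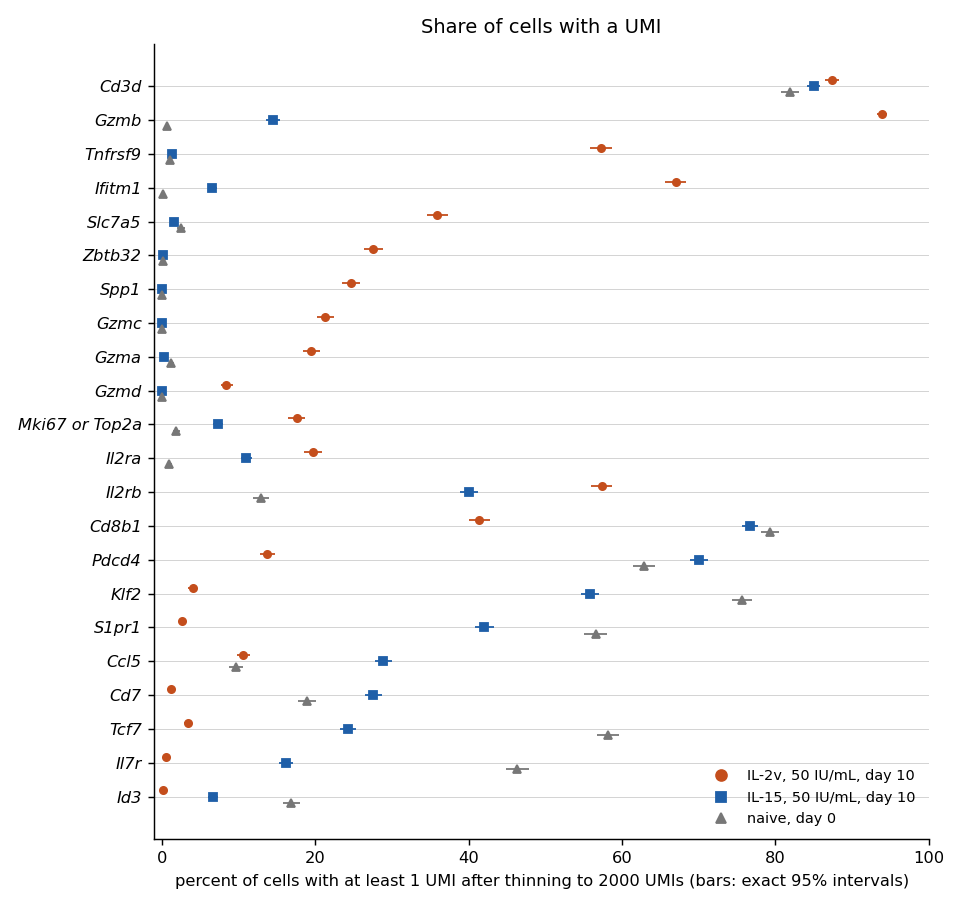
Percent of cells with at least 1 UMI of each gene after thinning to 2000 UMIs per cell, in the IL-2v and IL-15 libraries (day 10, 50 IU/mL) and in the naive library; bars are exact 95% intervals for counting error. Gzmb (93.9% and 14.4%) separates the cultures most widely, Cd3d (87.4% and 85.0%) hardly at all, and for Klf2, S1pr1, Tcf7 and Il7r the IL-15 value lies between the other two.

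The cells of the IL-2v library were not uniform in the late granzymes. Among its thinned cells, 25.4% had a UMI of Gzmc to Gzmg, the 10% of cells with the most of these UMIs held 89.4% of them, and the highest cell held 178 of its 2000 UMIs. Gzmb was spread more evenly, with 31.0% of its UMIs in the top 10% of cells. Gzmd, one of the late granzymes, had a UMI in 23.9% of cells with Spp1 (21.6 to 26.4%) and in 3.30% of cells without it (2.75 to 3.92%). It was in 20.1% of cells with Gzma and 5.57% of those without, and in 12.4% of cells with Tnfrsf9 and 3.03% of those without. Tcf7 UMIs were seen in 3.29% of IL-2v cells with Gzmb and in 5.00% of those without, values whose intervals overlap. The few IL-2v cells without a Gzmb UMI thus had a Tcf7 share far below the 24.2% of the IL-15 library. In the IL-15 library, Tcf7 was in 17.8% of the 930 cells with Gzmb and in 25.3% of the 5508 without. Doublets, droplets with more than 1 cell, were not called, and with at most 2 times the median UMIs per cell 524 genes were higher and 278 lower.

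Genes of the receptor and of the STAT5 response list differed in both directions. Of 7 genes of the receptor and JAK-STAT list compared, 2 stood 2-fold or more above IL-15 and 1 below, against 9.03% and 5.19% of all genes, with a median of −0.07. Il2ra was at 117 and 57.2 CPM (log2 1.02), Il2rb at 453 and 275 (0.72), and Il2rg at 161 and 234 CPM (−0.54). Jak1 was at 204 and 450 CPM (−1.14), and Jak3 at 40.8 and 19.8 CPM (1.01), uncertain because 25% of its 3′ end words also lie in Insl3. Il2ra and Jak3 were below 2-fold under the other scalings. Il15ra and Stat5a stayed under 20 CPM.

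Genes of the STAT5 response list, not all of which answer STAT5 alone, lay in both directions. Of 13 compared, 1 was higher and 3 lower, against 9.03% and 5.19% of all genes, with a median of 0.27. Cish, a feedback inhibitor and classic STAT5 target, was at 150 and 117 CPM (0.35), Socs2 at 53.4 and 39.8 (0.41), and Pim1 at 234 and 278 CPM (−0.24). The feedback inhibitors Socs1 (111 and 231 CPM, −1.05) and Socs3 (6.63 and 28.6 CPM, −1.95) were lower, as was the growth regulator Myc (67.0 and 142 CPM, −1.07). Dusp6, a phosphatase that limits ERK signalling, was the 1 member higher, at 67.5 and 5.49 CPM (3.40). Of the BCL2 family, which controls cell death, the survival genes Bcl2 (550 and 1015 CPM, −0.88) and Mcl1 (102 and 181 CPM, −0.82) had lower values with IL-2v and Bcl2l1 (43.6 and 23.9 CPM, 0.84) a higher value, all within 2-fold. The death effector gene Bax was higher (255 and 112 CPM, 1.18), as was Bcl2a1b (2.51), whose copies make it uncertain.

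Genes of sterol synthesis were higher almost without exception: 19 of 20 compared were at least 2-fold higher, against 9.03% of all genes, with a median of 2.57. Of the 19, 15 reached 20 CPM with IL-2v alone. They run from Hmgcs1 (198 and 19.9 CPM, log2 3.25) through Sqle (2.67) and Cyp51 (3.19) to Msmo1 (2.94). The exception was Ebp (57.0 and 59.9 CPM, −0.07). Insig1, which restrains the pathway, differed by 2.46, and Srebf2, the transcription factor of this pathway, by 1.23. Fdps had the widest difference (3.80) and is uncertain, since 50.3% of its 3′ end words have a copy, as is Idi1. After thinning, 92.5% of IL-2v cells and 46.1% of IL-15 cells had a UMI of the list, with a median of 3 and 0 UMIs per cell.

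The sterol response element TCACNCCAC was searched in the same windows and lay in 1.05% of all of them and in 0.847% of those of the higher genes. Of the 19 higher sterol genes, 12 matched the promoter table, and 1 held these letters. That gene was Hmgcs1, whose stretch is shown as the member of the list with the motif, on the plus strand at chr13:119690184-119690252, with the motif in capitals 137 bases before the start.
Hmgcs1: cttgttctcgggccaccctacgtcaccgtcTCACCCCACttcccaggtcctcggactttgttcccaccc
The absence of these letters from the other windows says nothing about the factor.

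Of 11 genes of fatty acid synthesis, 8 were higher and 0 lower, against 9.03% and 5.19% of all genes, with a median of 1.26, and 6 of the 8 reached 20 CPM with IL-2v alone. Scd1, Fads2 (34.2 and 0.502 CPM, log2 4.55) and Scd2 (434 and 38.2 CPM, 3.47), desaturases that introduce double bonds, differed most. Fasn (1.22) and Srebf1 (1.5) were also higher, and Acly (0.53), Acss2 (−0.46) and Elovl5 (−0.68) were within 2-fold.

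Of 19 genes of amino acid uptake and synthesis, the folate cycle and the ATF4 stress response, 15 stood 2-fold or more above IL-15, against 9.03% of all genes, and 0 below, with a median of 2.06. Of the 15, 8 reached 20 CPM with IL-2v alone. Slc7a5, the large neutral amino acid transporter, was at 249 and 9.70 CPM (log2 4.55), and its partner Slc3a2 at 210 and 63.2 (1.72). Asns, which makes asparagine, was at 116 and 6.72 CPM, Psat1 of serine synthesis at 134 and 18.9, and the mitochondrial folate enzyme Mthfd2 at 155 and 27.9 CPM. The transcription factor Atf4 was at 311 and 50.4 CPM (2.60), and its targets Ddit3 and Trib3 differed by 2.79 and 3.22. The letters TGATGNAA of the ATF4 composite element were in 4.87% of the windows of higher genes, 1.59% of those of lower genes, 2.04% of those of all genes compared and 3.45% of all windows. Of the 13 of these 15 genes that matched the table, Asns held them.

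Genes of glycolysis lay on both sides. Of 17 compared, 1 was higher and 2 lower, against 9.03% and 5.19% of all genes, with a range from −1.54 to 1.22 and a median of 0.12, which fell to −0.03 with ribosomal protein and mitochondrial genes left out of the totals. Gapdh was at 2959 and 2514 CPM and Ldha at 1256 and 1111 CPM. The glucose transporter gene Slc2a3 was higher (107 and 45.3 CPM, log2 1.22), while Pfkl (36.5 and 108 CPM, −1.54) and the lactate exporter gene Slc16a3 (25.1 and 57.2 CPM, −1.16) were lower. Fatty acid oxidation had 2 of 12 genes higher, against 9.03% of all genes, and a median of 0.11, or −0.03 with those totals. Hypoxia response genes had a median of −0.49, with 1 of 10 higher and 2 lower, against the same 9.03% and 5.19%. Ribosome biogenesis (21 genes), the proteasome (19) and heat shock (8) had no member 2-fold apart, nor had the 13 respiratory genes of the mitochondrial genome. Of 80 nuclear genes of the respiratory chain 2 were higher, Cycs and Atp5d, a share below the 9.03% of all genes. Of 80 ribosomal protein genes, 3 were lower (Rps27, Rps28 and Rps29), a share below the 5.19% of all genes, and the median was −0.17.

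S100, galectin and annexin genes, many of which bind calcium or sugars, were higher in 6 of 15, against 9.03% of all genes. The 1 lower member, a share near the 5.19% of all genes, was Crip1 (555 and 1226 CPM, log2 −1.14). Lgals3 was at 1486 and 200.4 CPM (2.88), Anxa1 at 75.5 and 10.1 (2.78), and Anxa2 differed by 1.43. Of 3 cytokine and chemokine genes compared, Spp1 and Tnf (36.1 and 15.2 CPM, 1.19) were higher, against 9.03% of all genes. Both reached 20 CPM with IL-2v alone. Ccl5, a chemokine of memory CD8 cells, was lower (162 and 607 CPM, −1.90). Ifng stayed below 3 CPM in both libraries.

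Several cell cycle inhibitors and genes of G2 and M phase were higher with IL-2v. Cdkn1a (p21) was at 152 CPM with IL-2v and 3.26 with IL-15 (log2 5.17), Cdkn2a, of the p16 and p19 locus, at 64.7 and 2.23 (4.35), and Cdkn2b (p15) at 24.9 and 1.32 CPM (3.48). Cdk6 was also higher (239 and 107 CPM, 1.15), and Ccnd2 (−0.61), Ccnd3 (0.08), Cdk4 (−0.27), Cdkn1b (−0.58) and Cdkn2d were within 2-fold. Of these 9 genes of D cyclins, their kinases and inhibitors, 4 were thus higher and 0 lower, with a median of 0.08. Over all genes, 9.03% were higher and 5.19% lower. Of the 4, 3 reached 20 CPM with IL-2v alone. Of 33 genes of G2 and M phase, 11 were higher and 0 lower (median 0.70), against 9.03% of all genes higher, Mki67 (112 and 41.4 CPM) and Cdk1 (38.4 and 15.8 CPM) among them. Of the 11, 8 reached 20 CPM with IL-2v alone, so they entered through the library where they are high. Of 24 genes of S phase, 2 were higher, Dtl and Uhrf1 (median 0.40), a share no larger than the 9.03% of all genes compared, and both reached 20 CPM with IL-2v alone. The counts of the G2 and M phase list were 2 higher (median 0.23) in cells with a Mki67 or Top2a UMI and 3 higher (0.39) in cells without. But those cells were chosen by genes of the list, from counts without thinning.

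The share of cells with a UMI of Mki67 or Top2a, used to mark dividing cells, was 17.5% with IL-2v (16.5 to 18.6%) and 7.32% with IL-15 (6.69 to 7.98%), and 1.86% in naive cells. Without thinning it was 25% and 13.1%. The difference depends on the rule: with at least 3 UMIs of the S, G2 and M phase lists, 63.5% and 63.8% of thinned cells passed. In both libraries the median cell held 1 UMI of the S phase list and 2 of the G2 and M phase list. That cut thus lies near the level of the median cell and says little about which cells divide. With at least 10 such UMIs, a rule chosen after seeing the data, 18.4% and 6.73% passed. The shares thus stood apart under the rules that ask for a proliferation marker or many cell cycle UMIs, and overlapped within counting error under the rule that asks for 3.

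Other lists were recomputed in cells with and without a Mki67 or Top2a UMI. Here the cells were sorted by counts without thinning, where 25% of IL-2v and 13.1% of IL-15 cells had such a UMI, a share that depends on depth. Of all genes compared, 7.8% were higher and 4.07% lower in cells with such a UMI, and 9.19% and 5.9% in cells without. The median of the homing list was −2.64 in cells with and −3.24 in cells without, that of the granule list 2.47 and 2.67, that of the sterol list 1.93 and 2.71, and that of the amino acid list 1.95 and 2.06. The naive and memory factors had a median of −0.87 with 5 lower in cells with such a UMI and −1.14 with 7 lower in cells without, and the interferon list 0.98 with 8 higher and 1.27 with 10 higher. Of the S100 list 3 and 6 were higher, and of the hypoxia list 0 and 1 were higher and 0 and 2 lower. Of 165 named genes past 2-fold, 34 were less than 2-fold apart within cells with such a UMI and 11 within cells without, and none changed direction. Of the 34, 11 belong to the cell cycle lists, by genes of which the cells were chosen. The other 23 included Lef1 (−0.73), Foxp1 (−0.87), Socs1 (−0.88), Ifi47 (−0.88), Jak1 (−0.90), Ltb (−0.91), Myc (−0.93), Anxa2 (0.81), Bax (0.77), Nkg7 (0.90), Ly6c2 (0.90), Jak3 (0.80), Lgals1 (0.80), S100a6 (0.73), Pdk1 (−0.78) and Bnip3 (−0.96). In cells with at most 5% mitochondrial UMIs, Il2ra (0.83), Cdk6 (0.95), Cd44 (0.96), Tnf (0.95), Dtl (0.78), Ly6c2 (0.99), Stat2 (0.92), Bnip3 (−0.90), Acaca (0.96) and Elovl6 (0.94) were less than 2-fold apart. Cdkn2a differed by 2.84 in cells with such a UMI and by 5.05 in cells without. In thinned IL-2v cells, sorted anew by the thinned counts, Gzmd had a UMI in 4.49% of the 868 cells with a Mki67 or Top2a UMI. It was in 9.22% of the 4080 cells without, while Tcf7 was in 4.03% and 3.26%.

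The same cytokines were compared at the lower dose and on earlier days, in 5 further pairs of libraries of equal day and dose. These are other libraries and not replicates. At 50 IU/mL on day 3, 108 of 6072 genes stood 2-fold or more above IL-15 (1.78%) and 69 below (1.14%), together 177 or 2.92%. On day 5 at that dose, 540 of 6182 stood above (8.74%) and 104 below (1.68%), together 644 or 10.4%. At 5 IU/mL the numbers were 24 (0.418%) and 2 (0.0349%) of 5736 on day 3, together 0.453%. They were 363 (6.39%) and 30 (0.528%) of 5685 on day 5, together 6.91%, and 621 (10.7%) and 377 (6.47%) of 5824 on day 10, together 17.1%. At both doses, more genes stood apart on day 10 than on day 5, and more on day 5 than on day 3. Of the 499 genes higher on day 10 at 50 IU/mL, 188 were also higher at 5 IU/mL on that day, or 37.7% of them and 30.3% of the 621 found there. Of the 287 lower genes, 95 were shared, or 33.1% of them and 25.2% of the 377 found there. In the opposite direction at 5 IU/mL stood 1 of the 499 and 10 of the 287.

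**Figure D4:**
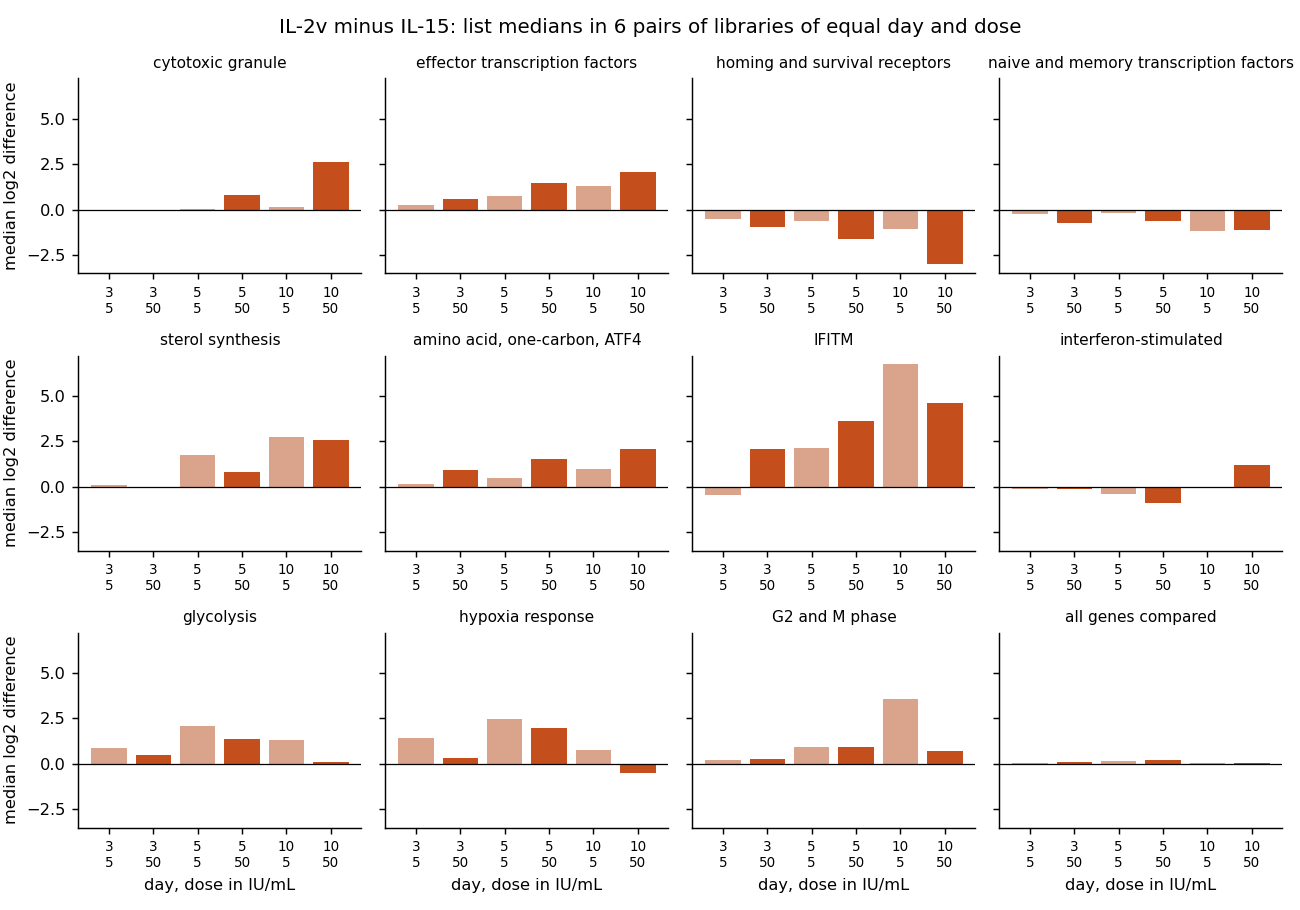
Median log2 difference, IL-2v minus IL-15, of 11 gene lists and of all genes compared, in 6 pairs of libraries of equal day (3, 5 or 10) and dose (5 IU/mL light, 50 IU/mL dark). Each median covers the genes that reached 20 CPM in the pair of day 10 at 50 IU/mL. The granule list reaches 2.61 on day 10 at 50 IU/mL and 0.17 at 5 IU/mL, the sterol list stands at 2.57 and 2.72, and glycolysis at 0.12 and 1.32.

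The lists fell into different patterns over these pairs. In each pair, the median covers the members that reached 20 CPM in the pair described here. Of these, 8 of 16 granule and 15 of 20 sterol genes did so with IL-2v alone, and 7 of 10 homing genes with IL-15 alone. Such a choice of members favours a wide difference in the pair described here. The granule list stood at 0.78 on day 5 at 50 IU/mL and 0.17 on day 10 at 5 IU/mL, against 2.61 in the pair described here. The homing list went from −0.95 on day 3 to −1.62 on day 5 and −2.98 on day 10 at 50 IU/mL. Sterol synthesis was as far apart on day 10 at 5 IU/mL (2.72) and was −0.09 on day 3 at 50 IU/mL. The interferon-stimulated list had a median of 1.21 in the pair described here, −0.88 on day 5 at 50 IU/mL and −0.08 on day 10 at 5 IU/mL. Glycolysis stood at 1.34 on day 5 at 50 IU/mL and 1.32 on day 10 at 5 IU/mL, where the IL-15 library had low levels: Pgk1 was at 125 CPM with 5 IU/mL IL-15 and at 1546 CPM with 50 IU/mL.

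Over the days at 50 IU/mL, single genes moved apart in different ways. Gzmb was at 1544, 1938 and 3143 CPM on days 3, 5 and 10 with IL-2v, and at 899, 462 and 93.1 CPM with IL-15. Gzmc went from 7.88 to 139 and 773 CPM with IL-2v and from 4.48 to 12.9 and 0.220 CPM with IL-15. Gzmd had no UMI on day 3 in either library, and stood at 1.12 CPM on day 5 and 424 CPM on day 10 with IL-2v.

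The sterol gene Fdps and the stress genes Atf4 and Asns stayed closer to their day 3 level with IL-2v than with IL-15. Fdps was at 461, 369 and 375 CPM on the 3 days with IL-2v and at 456, 182 and 26.1 CPM with IL-15, so the libraries were level on day 3. Atf4 was at 458, 417 and 311 CPM with IL-2v and at 184, 124 and 50.4 CPM with IL-15, and Asns at 132, 115 and 116 CPM and at 37.5, 14.6 and 6.72 CPM. Tcf7 and Il7r took the other course by day 10, with the larger relative fall under IL-2v. Tcf7 was at 65.2, 57.0 and 17.1 CPM with IL-2v and at 197, 206 and 144 CPM with IL-15, below the naive 471 CPM throughout. Il7r was at 115 and 102 CPM on day 3, close in both cultures, at 51.5 and 178 CPM on day 5, and at 2.82 and 96.6 CPM on day 10.

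**Figure D5:**
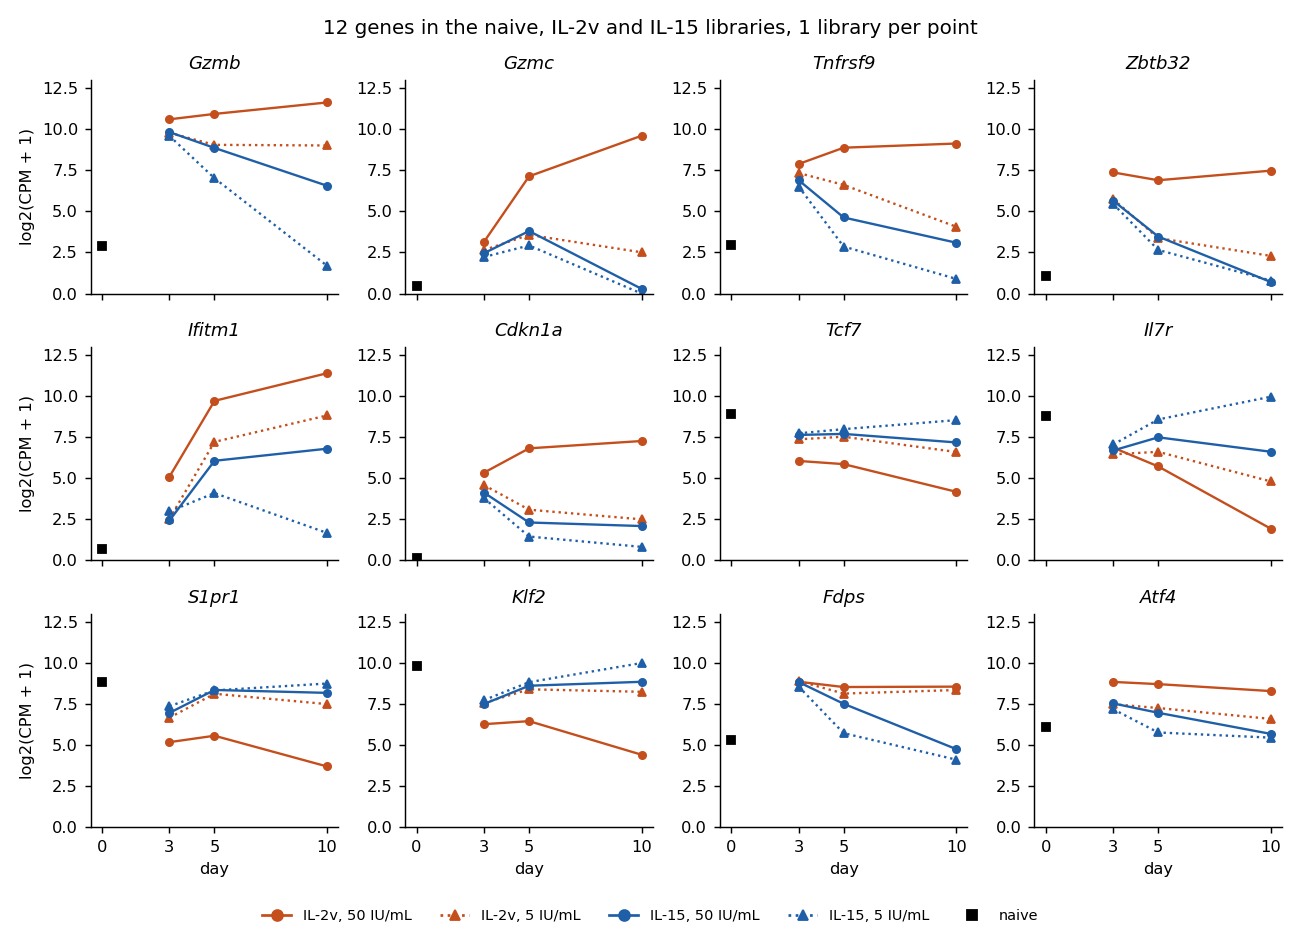
Levels of 12 genes as log2(CPM + 1) on days 3, 5 and 10 with IL-2v and IL-15 at 50 IU/mL (circles, solid lines) and 5 IU/mL (triangles, dotted lines), and in the naive library on day 0 (square); each point is 1 library. Gzmb with 50 IU/mL goes from 1544 to 3143 CPM with IL-2v and from 899 to 93.1 CPM with IL-15, and Il7r ends at 2.82 and 96.6 CPM.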

How the data were processed

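The authors deposited, for each library, a table of raw UMI counts per gene symbol and cell barcode, with 17516 symbols. Per the submitters' processing notes, Cell Ranger, Seurat 4.0.1 and 3.0.2 and the mm10 build were used; their settings and any removal of doublets are not given in the sources used here. No cell had over 3450 genes or 10% mitochondrial UMIs, so the tables had apparently been filtered before deposit, and no further filter was applied. Groups came from the titles.

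Counts were summed per library in Python 3.11.15 (numpy 2.4.6, scipy 1.17.1), scaled to CPM and compared with a pseudocount of 1. Each sum has an exact Poisson interval and each share an exact Clopper-Pearson interval. Thinning used 1 fixed random seed. With 1 library per condition no test was run, and edgeR 4.0.16 gave only the scaling factors (trimmed mean of M values, TMM) of an alternative. The steps were tested on simulated data. Named genes are the 15 highest, the 15 lowest and members of 33 gene lists. Members and lists were chosen with earlier results of these data known. Genes with 20% or more of their 3′ end words or exonic bases shared with another gene of GENCODE vM21 (GRCm38) are uncertain. Promoters are from RefSeq (GRCm38.p6). Results of some list members are not reported here. Alternatives changed the cells kept, the scaling, the pseudocount, the CPM minimum, the thinning and the rule for dividing cells.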

Additional observations from a re-analysis of the deposited data

Results flagged for a closer look

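For 3 genes of the lists or the named genes, the difference between IL-2v and IL-15 on day 10 had opposite directions at 50 and 5 IU/mL, each by at least 2-fold. Drc1 stood at −4.05 on the log2 scale at 50 IU/mL and at 3.28 at 5 IU/mL: the IL-15 library held 67.9 CPM at the higher dose and 2.36 CPM at the lower, and the IL-2v library 3.15 and 31.7 CPM. Crip1 stood at −1.14 and 1.53, with 1226 and 641 CPM with IL-15 and 555 and 1851 CPM with IL-2v. Iigp1 stood at 1.44 and −3.0, with 13.5 and 146 CPM with IL-15 and 38.5 and 17.4 CPM with IL-2v. The difference between the doses was not tested, since each condition had 1 library.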

How the results depend on the processing

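Over 11 alternatives, no named gene and no list median past 2-fold changed direction: of 1815 values of 165 genes, 1714 kept their side of 2-fold and 101 fell below it. Part of the 1714 could not move. The cell filter at 1000 UMIs, 500 genes and 10% mitochondrial UMIs removed no cell, and a changed CPM minimum leaves the value of a single gene as it is. Of 361 list medians, 322 stayed close and 39 moved, and of 48 shares of cells 19 stayed within their interval and 29 moved. Without thinning Tcf7 was in 7.62% and 44.9% of cells and Il7r in 1.39% and 29.2%. The counts of 499 higher and 287 lower genes became 450 and 325 with TMM scaling and 475 and 330 in cells with at most 5% mitochondrial UMIs. Totals taken over the non-ribosomal nuclear genes brought the lower genes to 574 as 7306 genes were then compared, and to 426 over the same 5526 genes, a pseudocount of 10 gave 333 higher and 165 lower, no CPM minimum gave 1213 higher and 641 lower, and a minimum of 100 CPM gave 138 and 97, since fewer genes were compared. The share of cells with a Mki67 or Top2a UMI became 12.8% with IL-2v and 4.99% with IL-15 at 1000 UMIs per cell, and 25% and 13.1% without thinning. In cells with at most 2 times the median UMIs it was 6.43% with IL-15. Under the rule of at least 3 UMIs of the cell cycle lists, a cut near the level of the median cell, 63.5% and 63.8% passed. No paired analysis was possible because each condition had 1 library and the labels carry no replicate numbers. The depth allows genes of a few CPM to be counted in sums, and single cells show them rarely. The difference in cytokine cannot be told apart from a difference between these cultures or libraries, whose mitochondrial and ribosomal shares also differed.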

Other observations

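The library of IL-2 at 50 IU/mL on day 10 gives a further level for the genes that differed between IL-2v and IL-15. In the order IL-2, IL-2v, IL-15, the level of Gzma was 5352, 475 and 7.00 CPM, that of Gzmb 7618, 3143 and 93.1 CPM, and that of Gzmd 3602, 424 and 0 CPM. Prf1 was at 732, 76.5 and 21.4 CPM, Tnfrsf9 at 1112, 556 and 7.53, and Havcr2, which encodes the inhibitory receptor TIM-3, at 98.3, 15.7 and 0 CPM. Tcf7 was at 2.38, 17.1 and 144 CPM. For each of these genes the IL-2v value lay between the other two. Il7r did not follow this order, with 23.1, 2.82 and 96.6 CPM, nor did Isg15, with 70.4, 157 and 7.81 CPM. The sterol gene Fdps was at like levels with IL-2 and IL-2v, with 437, 375 and 26.1 CPM. These are single libraries and the differences between them were not tested.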
